A study of Homo sapiens with 10 samples.

Results

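The proteasome and the COP9 signalosome were followed through the messenger RNA of 46 genes in MCF10A, an established line of human mammary epithelial cells that does not form tumours. The 46 were a fixed list of subunit genes, matched by gene symbol in a table of 27942 genes, and all 46 were found. They comprise 7 genes of the alpha ring and 7 of the beta ring of the 20S core, 6 ATPases, 3 other base subunits and 8 lid subunits of the 19S regulatory particle, 3 assembly chaperones of the 19S base, 3 genes of the 11S activators and 9 of the COP9 signalosome. Cells were kept for 24 h on fibronectin-coated polyacrylamide gels of 400 Pa, 1 kPa, 6 kPa or 60 kPa in medium with 5 mM glucose, and on the 400 Pa gel also with 25 mM glucose, a concentration given for the series where the sample labels say high glucose. All groups shared horse serum, epidermal growth factor, insulin, hydrocortisone and cholera toxin in the growth medium. There are 5 groups of 2 libraries, biological replicates according to the labels, with 4 gel cultures pooled in each. The model is 1 established cell line on a coated gel.

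The 26S proteasome degrades proteins that carry ubiquitin chains. Its barrel-shaped 20S core is a stack of alpha rings, which gate the entry, and beta rings, of which PSMB5, PSMB6 and PSMB7 carry the proteolytic sites. The 19S particle on top recognises ubiquitin, removes it and unfolds the substrate with a ring of ATPases. The COP9 signalosome is built on the same architecture as the 19S lid, and its subunit COPS5 removes the ubiquitin-like protein NEDD8 from cullins, the scaffolds of a large family of ubiquitin ligases. When proteasome activity falls, the transcription factor NFE2L1 is known to raise the genes of most proteasome subunits together. The data were asked: whether subunits of one complex moved together, and whether they moved along the share of G and C bases (GC) of their transcripts.

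The libraries held 2.98 to 28.61 M mapped reads (M for the prefix mega), with the deepest pair at 400 Pa and 5 mM glucose. Levels are in FPKM, fragments counted per kilobase of exon and per M of mapped reads. Of 8 markers of mammary epithelium all had a mean of at least 0.5 FPKM, and their summed level was 3097 to 3208 FPKM at 400 Pa, 2237 to 2511 at 60 kPa and 2169 to 2171 at 25 mM glucose. Of the leukocyte markers CD163 and CD3E were at 0 in every library, while CD68 (12.2 FPKM at 400 Pa and 8.25 at 60 kPa), CD14 (8.72 and 2.60) and CSF1R (2.65 and 1.78) were present. The sum over the list was 23.5 FPKM in both 400 Pa libraries, 10.0 to 15.4 at 60 kPa and 16.7 to 18.0 at 25 mM. Of 7 fibroblast markers COL1A2 and COL3A1 were at 0 throughout and DCN was the highest, with 16.5 FPKM at 400 Pa, 11.4 at 60 kPa and 17.9 at 25 mM. Their sum was 17.4 to 17.6 at 400 Pa, 11.9 to 12.2 at 60 kPa and 17.8 to 19.3 at 25 mM. Of 5 endothelial markers VWF was at 0 throughout, and the sum was 0.75 to 1.28 FPKM over the 10 libraries. The part of these marker levels in the results was not tested. In RNA from whole cultures, fewer cells with a transcript and less of it per cell cannot be told apart.

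Transcript GC ran from 37.1% for COPS2 to 62.0% for GPS1, with a median of 47.8% over the 46 genes. The first 120 coding bases of 6 members show the contrast. Of these 6, COPS2, PSMD14 and PSMA4 rose on the 60 kPa gel and GPS1, PSMD8 and PSMB6 fell. G and C are in capitals, the strand is that of the transcript, and the source is the GENCODE annotation.
COPS2: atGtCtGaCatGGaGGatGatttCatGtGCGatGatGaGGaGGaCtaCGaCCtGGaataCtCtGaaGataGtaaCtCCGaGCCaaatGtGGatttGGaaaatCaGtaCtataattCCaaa
PSMA4: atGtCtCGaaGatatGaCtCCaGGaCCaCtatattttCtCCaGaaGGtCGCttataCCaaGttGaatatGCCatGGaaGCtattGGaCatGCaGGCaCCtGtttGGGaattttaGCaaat
PSMD14: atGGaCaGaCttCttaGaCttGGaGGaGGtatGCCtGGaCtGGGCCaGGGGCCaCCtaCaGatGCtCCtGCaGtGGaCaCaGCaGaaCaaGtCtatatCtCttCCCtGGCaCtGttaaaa
GPS1: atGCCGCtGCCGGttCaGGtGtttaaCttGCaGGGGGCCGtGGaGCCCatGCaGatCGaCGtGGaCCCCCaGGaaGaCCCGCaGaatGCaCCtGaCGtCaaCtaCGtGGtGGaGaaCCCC
PSMB6: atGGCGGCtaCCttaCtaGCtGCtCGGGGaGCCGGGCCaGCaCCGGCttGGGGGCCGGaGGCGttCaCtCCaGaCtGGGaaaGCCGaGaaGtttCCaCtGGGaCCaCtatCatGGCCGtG
PSMD8: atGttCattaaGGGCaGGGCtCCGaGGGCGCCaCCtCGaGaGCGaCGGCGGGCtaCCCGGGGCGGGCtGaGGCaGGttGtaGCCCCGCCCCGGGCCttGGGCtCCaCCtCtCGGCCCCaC
In these stretches GC was 40.8% for COPS2, 41.7% for PSMA4 and 51.7% for PSMD14. It was 61.7% for GPS1, 64.2% for PSMB6 and 72.5% for PSMD8, the most G and C among the 6.

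The summed level of the 46 genes did not rise or fall steadily with stiffness. It was 2936 and 3031 FPKM at 400 Pa, 2654 and 2576 at 1 kPa, 2864 and 3026 at 6 kPa, 3289 and 2968 at 60 kPa, and 2937 and 2887 at 25 mM glucose. Here and below the deeper library of a group is given first. The 1 kPa libraries were the lowest of the 10 and the deeper 60 kPa library the highest, and all other libraries lay between 2864 and 3031. Single genes spanned mean levels from 0.72 FPKM (PSMC1, an ATPase) to 224 FPKM (PSMB4, a structural subunit of the beta ring), with a median of 57.6 FPKM.

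PSMC1 stands apart by its level, since the other 45 members had means of at least 8 FPKM. It had 40 and 19 reads in the 400 Pa libraries and 2 to 14 in each of the other 8 libraries. There are 13 annotated pseudogenes that carry its name. Reads shared with such copies could have been lost or split in the authors' counting, so the values of PSMC1 are uncertain. Pseudogenes named for them exist for 14 members in all. Exons of 18 members overlap a gene on the opposite strand and those of 6 a gene on the same strand. Among the 18 are COPS2, GPS1, PSMD14, PSMD11, COPS8 and PSME3. Overlaps were taken over all annotated transcripts of a gene, and not over the counted one alone. The counting command set no strand option, so reads of such neighbours cannot be told apart there.

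On the 60 kPa gel the subunits did not move as a body. Relative to 400 Pa, 16 of the 46 genes rose, 13 fell and 17 did not pass the test, with a median log2 fold change of 0.01 and a standard deviation (SD) of 0.29. Over all 12720 genes tested 26.6% rose and 25.2% fell, with a median of -0.00 and an SD of 0.29, so the counts and the spread of the members were near those of the transcriptome. With 25 mM glucose on 400 Pa, 11 members rose, 21 fell and 14 did not pass, with a median of -0.07 and an SD of 0.34. Of all 12826 genes tested there 27.9% rose and 27.5% fell, at a median of -0.00 and an SD of 0.28. These tests used limma on the deposited normalised log2 values of the 4 libraries compared, called at a Benjamini-Hochberg adjusted p under 0.05 over all genes. Each fit has 2 residual degrees of freedom, so standard errors rest largely on the trend across genes, and the deposited scale shrinks the fold changes of genes with few reads. The stiffness and the glucose comparison share the 400 Pa libraries at 5 mM glucose, so an agreement between them is no independent evidence, and their values are only set side by side below.

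**Figure D1:**
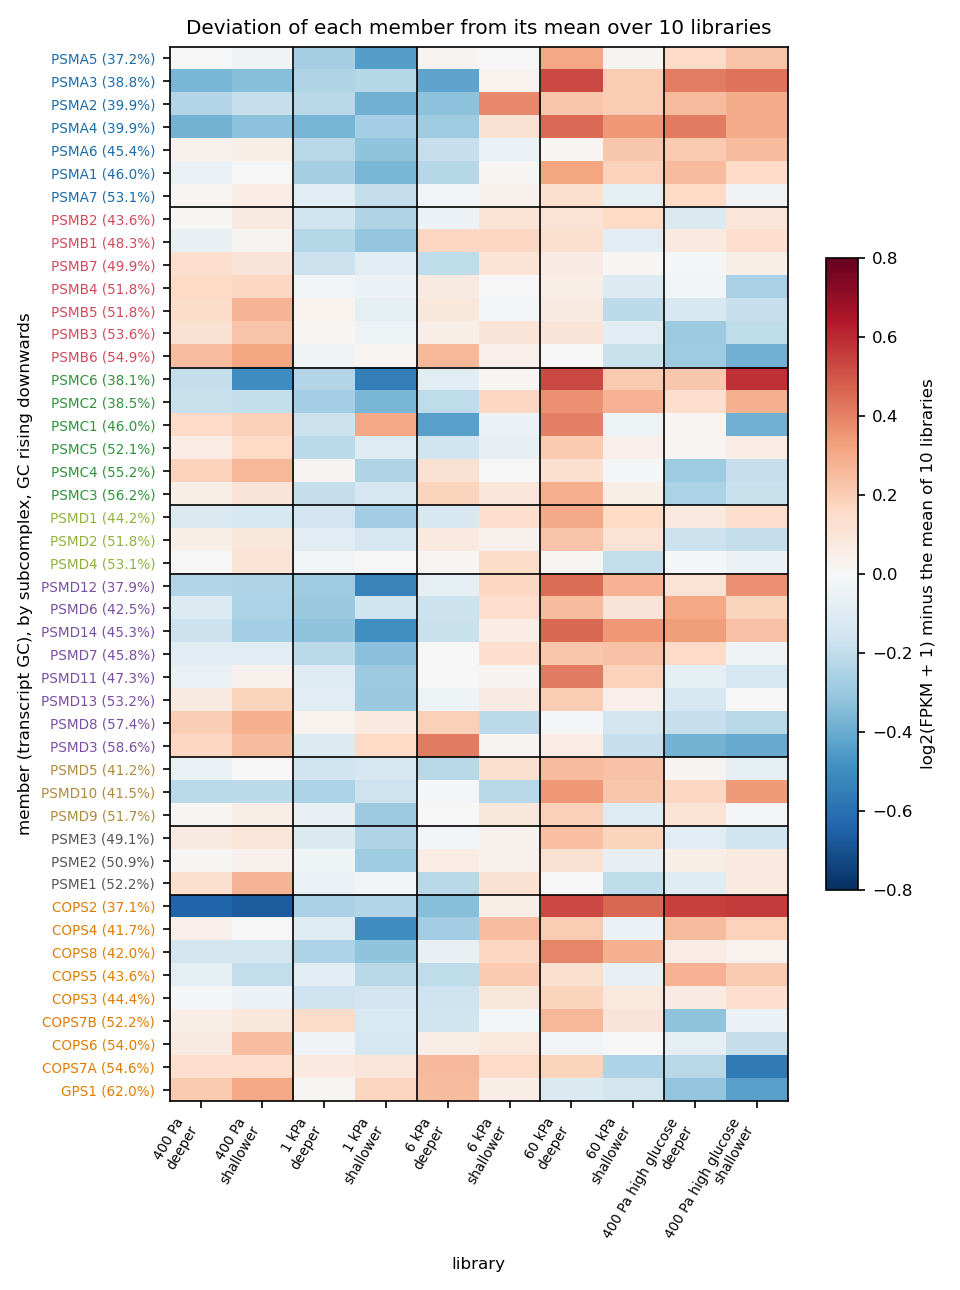
Deviation of each of the 46 genes in each of the 10 libraries from that gene's mean, in log2(FPKM + 1), with genes sorted by subcomplex and libraries by group. Within most subcomplexes some rows are above their mean at 60 kPa and at 25 mM glucose and others are below it.

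The split followed transcript GC. Of the 17 members under 45% GC, 12 rose and 0 fell at 60 kPa, and 10 rose and 1 (PSMB2) fell at 25 mM glucose. Of the 20 members over 50% GC, 0 rose and 12 fell at 60 kPa, and 0 rose and 17 fell at 25 mM. The 9 members between had 4 rises and 1 fall at 60 kPa and 1 rise and 3 falls at 25 mM. Across the 46 genes, Spearman's correlation between log2 fold change and transcript GC was -0.857 at 60 kPa and -0.899 at 25 mM. The same relation ran through the transcriptome, with correlations of -0.745 and -0.791 over all genes with a GC value. Among all genes near 41% GC the median log2 fold change was 0.209 at 60 kPa and 0.223 at 25 mM. Near 53% GC it was -0.086 and -0.101. The shares of all genes called in each GC class were not counted, so the class counts are no trait of the members alone. Genes are not independent replicates, so these are descriptions with no test.

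The slope of the members was steeper than that of all genes, at -0.374 against -0.231 log2 units per 10 percentage points of GC at 60 kPa, and -0.462 against -0.245 at 25 mM. Among genes whose mean reached 8 FPKM, the level of all members but PSMC1, the slope over all genes was -0.311 and -0.341. The part of expression level in this gap, or of the shrinking of genes with few reads, was not tested. The GC of the coding sequence ordered the members about as well as that of the whole transcript, with correlations of -0.829 and -0.875, and the GC of the untranslated regions less, at -0.628 and -0.661. Exon length (correlation 0.382 and 0.100) and mean FPKM (-0.337 and -0.311) ordered them less. Inside single complexes the order by GC also held. Spearman's correlation was -0.893 and -0.929 over the 7 beta ring genes, -0.905 and -0.929 over the 8 lid genes, -0.80 and -0.933 over the 9 COP9 signalosome genes, -0.657 and -0.943 over the 6 ATPases, and -0.536 and -0.571 over the 7 alpha ring genes.

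**Figure D2:**
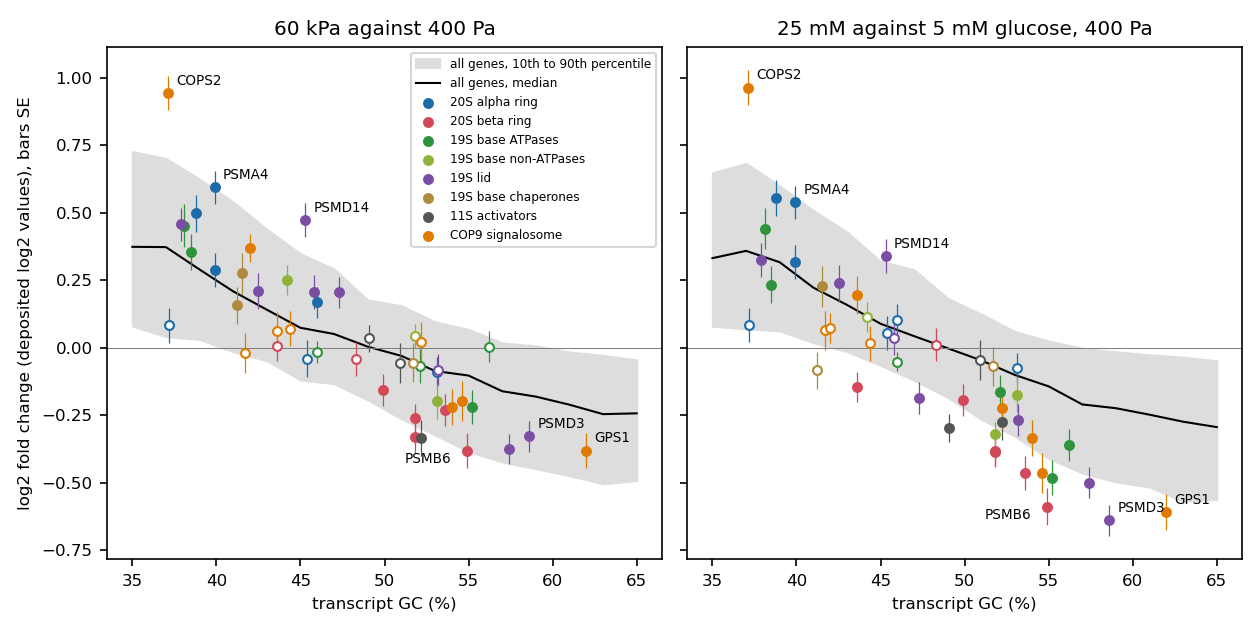
Log2 fold change of the 46 members, with standard errors as bars, against transcript GC in percent, for 60 kPa against 400 Pa and for 25 mM against 5 mM glucose; filled points passed the test, and the grey band and line give the 10th to 90th percentile and the median of all genes tested. Members under 45% GC lie mostly above 0 and those over 50% mostly below it, in the direction of the grey line.

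The relation could be read in single libraries. The deviation of the members from their own means rose with GC in both 400 Pa libraries, with correlations of 0.839 and 0.884, and in both 1 kPa libraries (0.762 and 0.658). It fell with GC in both 60 kPa libraries (-0.694 and -0.731) and both libraries at 25 mM glucose (-0.806 and -0.838). The 6 kPa libraries went opposite ways, at 0.684 in the deeper and -0.26 in the shallower. Over all genes the same 2 libraries had 0.625 and -0.313, so the 6 kPa gel gave no single direction for GC. Where the relation comes from was not tested.

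Because of this relation, counts and calls below are also given after a GC correction, in which the smooth curve of each library's deviation on GC over all genes was subtracted. After it, 8 members were higher and 8 lower at 60 kPa, against 20.0% and 19.3% of 12592 genes. At 25 mM glucose 4 were higher and 23 lower, against 20.5% and 20.6% of 12694 genes, with a member median of -0.13. The SD of the members' fold changes fell from 0.29 to 0.17 at 60 kPa and from 0.34 to 0.20 at 25 mM, beside 0.21 and 0.18 over all genes after the same step. With the curve fitted and the test run only among genes of at least 8 FPKM, 6 members were higher and 10 lower of 45 at 60 kPa, where 22.1% of 5929 genes were higher and 20.8% lower. In that setting 3 were higher and 19 lower at 25 mM, where 19.3% of 5932 genes were higher and 20.0% lower. The correlation of the members with GC was then -0.031 at 60 kPa and -0.221 at 25 mM, where the curve from all genes had left -0.369 and -0.548.

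The counts depend on the scale. On log2(FPKM + 1) over all 10 libraries, 11 members were higher and 2 lower at 60 kPa, where 15.1% of 12820 genes were higher and 6.15% lower. For 25 mM the counts were 8 and 9, where 17.6% were higher and 6.84% lower. With GC correction on that scale 4 and 0 were called at 60 kPa, beside 5.38% and 4.04% of 12650 genes, and 1 and 8 at 25 mM, beside 2.41% and 2.30%.

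In the beta ring of the 20S core every gene that passed against 400 Pa at 5 mM glucose was lower, on either scale and with or without GC correction. At 60 kPa 5 of its 7 genes fell and 0 rose, with a median log2 fold change of -0.23. With 25 mM glucose 6 fell and 0 rose, with a median of -0.38. After GC correction 4 and 6 were lower, with medians of -0.15 and -0.30, where the medians over all genes were 0.01 and -0.00. The SD over the 7 genes after the correction was 0.07 at 60 kPa and 0.14 at 25 mM, against 0.17 and 0.20 over all 46. On log2(FPKM + 1) the falls that passed were fewer, 1 at 60 kPa and 3 at 25 mM. With GC correction on that scale no beta ring gene passed at 60 kPa. At 25 mM PSMB2, PSMB3, PSMB5 and PSMB6 were lower in that setting.

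Among the catalytic subunits, PSMB6 (chr17:4699439-4701798, hg19, plus strand), the caspase-like site, had the lowest fold changes as fitted. Its level was 97.3 and 102 FPKM at 400 Pa, 80.2 and 82.8 at 1 kPa, 98.5 and 84.2 at 6 kPa, 81.8 and 72.4 at 60 kPa, and 67.0 and 62.4 at 25 mM glucose. The 60 kPa and the 25 mM libraries were all below both 400 Pa libraries, and the 25 mM libraries were the lowest of the 10. Its change on the log2 scale was -0.38 ± 0.07 (standard error, as in all that follow) at 60 kPa with a limma adjusted p of 2.65e-06, and -0.59 ± 0.07 at 25 mM with 2.01e-14. After GC correction it was -0.25 (1.73e-03), beside -0.26 for PSMB5, and -0.43 (7.63e-07).

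PSMB5 (chr14:23495060-23504429, minus strand), the chymotrypsin-like site and the main target of proteasome inhibitor drugs, had 135 and 147 FPKM at 400 Pa, 124 and 116 at 1 kPa, 129 and 120 at 6 kPa, 127 and 105 at 60 kPa, and 111 and 106 at 25 mM. Both 400 Pa libraries were above all 8 others. PSMB5 changed by -0.33 ± 0.06 at 60 kPa and -0.38 ± 0.06 at 25 mM, and -0.26 and -0.30 after GC correction, all past the test. PSMB7 (chr9:127115744-127177752, minus strand), the trypsin-like site, moved less, with 126 and 123 FPKM at 400 Pa, 120 and 115 at 60 kPa and 113 and 118 at 25 mM. Its log2 fold changes were -0.16 ± 0.06 and -0.19 ± 0.06, both past the test, and after GC correction -0.13 at 60 kPa, which did not pass (adjusted p 0.0587), and -0.16 at 25 mM, which did (0.0147).

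The 4 beta ring genes without a catalytic site included the members that departed from the group. PSMB1 did not pass in either comparison (-0.04 ± 0.06 at 60 kPa and 0.01 ± 0.06 at 25 mM), with or without the correction. PSMB2, at 43.6% the lowest GC of the ring, was at 0.01 ± 0.06 at 60 kPa and fell by 0.15 at 25 mM, and after GC correction it was lower in both, at -0.15 and -0.32. PSMB3 and PSMB4 fell in both comparisons, PSMB3 by 0.23 and 0.46 and PSMB4 by 0.26 and 0.38. After the correction PSMB4 was lower in both and PSMB3 only at 25 mM.

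The alpha ring, with lower GC (median 39.9% against 51.8% in the beta ring), held rises in place of falls. At 60 kPa 4 of its 7 genes rose and 0 fell, and at 25 mM 3 rose and 0 fell. After GC correction 2 were higher (PSMA3, PSMA4) and 1 lower (PSMA5) in each comparison. PSMA4 (chr15:78832747-78841604, plus strand) had 68.9 and 71.2 FPKM at 400 Pa, 69.0 and 74.2 at 1 kPa, 73.4 and 97.9 at 6 kPa, 123 and 114 at 60 kPa, and 120 and 111 at 25 mM. The 60 kPa and 25 mM libraries did not overlap with any library of the 3 softer gels at 5 mM glucose. The log2 fold change of PSMA4 was 0.59 ± 0.06 at 60 kPa (limma adjusted p 1.17e-11) and 0.54 ± 0.06 at 25 mM (1.95e-14), and 0.31 and 0.25 after GC correction.

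PSMA3 had 54.7 and 55.7 FPKM at 400 Pa, 102 and 81.4 at 60 kPa, and 94.1 and 96.0 at 25 mM, with log2 fold changes of 0.50 ± 0.07 and 0.55 ± 0.07, and 0.19 and 0.24 after GC correction, both past the test. PSMA3 was counted on a noncoding transcript record of the gene. PSMA5 shows how much the GC curve carries: at 37.2% GC it had 22.4 and 22.1 FPKM at 400 Pa against 28.1 and 22.9 at 60 kPa, with 0.08 ± 0.06 on the log2 scale, while the median of 655 genes at the same GC was 0.36. After the correction it was therefore lower, at -0.26 in both comparisons. At 25 mM PSMA5 had 25.2 and 26.6 FPKM, so no 60 kPa or 25 mM library was below either 400 Pa library. Its coding GC was 46.1% and that of its untranslated regions 35.1%. The lower call rests on the GC of the whole transcript, and a correction by coding GC was not run. PSMA7, the highest member of the ring at 159 FPKM and at 53.1% GC, was at -0.09 ± 0.06 and -0.08 ± 0.06, and at 0.01 and 0.04 after the correction, and did not pass.

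The 3 base subunits of the 19S particle that are not ATPases and the ATPases showed no common direction. Of the 6 ATPases, which unfold the substrate and push it into the core, 2 rose and 1 fell at 60 kPa, and 2 rose and 3 fell at 25 mM. After GC correction 1 was higher and 0 lower at 60 kPa, and 0 higher and 3 lower at 25 mM. The 3 were PSMC3, PSMC4 and PSMC1. PSMC1 had only 8 and 3 reads in the 25 mM libraries, and its values are uncertain, as said. It is also among the lower members counted above for that comparison. PSMC6, at 38.1% GC, had 17.8 and 14.1 FPKM at 400 Pa, 29.9 and 23.8 at 60 kPa and 23.9 and 31.1 at 25 mM, with log2 fold changes of 0.45 ± 0.08 and 0.44 ± 0.08, which were 0.12 and 0.11 and no longer called after GC correction. PSMC4, at 55.2% GC, had 49.4 and 52.4 FPKM at 400 Pa, 47.4 and 43.1 at 60 kPa and 35.4 and 38.0 at 25 mM, with -0.22 ± 0.06 and -0.48 ± 0.06. After the correction PSMC4 was lower at 25 mM (-0.31) and did not pass at 60 kPa (-0.08).

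PSMD1 and PSMD2 are the large scaffolds of the base and PSMD4 is a ubiquitin receptor. PSMD1 rose by 0.25 ± 0.05 at 60 kPa and was at 0.11 ± 0.06 at 25 mM, which did not pass. After GC correction PSMD1 passed in neither, at 0.12 and -0.04. PSMD4 fell in both, with -0.20 ± 0.06 and -0.17 ± 0.07, and after GC correction neither comparison passed (-0.10 and -0.06). PSMD2 did not pass at 60 kPa (0.04 ± 0.04) and fell at 25 mM (-0.32 ± 0.05).

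Of the 8 lid genes 5 rose and 2 fell at 60 kPa, and 3 rose and 4 fell at 25 mM, which became 2 and 1, and 1 and 4, after GC correction. PSMD14 (chr2:162164786-162268228, plus strand) is the lid's deubiquitinase, which cuts ubiquitin chains off substrates as they enter. It had 48.4 and 45.2 FPKM at 400 Pa, 43.7 and 38.7 at 1 kPa, 48.4 and 57.1 at 6 kPa, 75.7 and 70.1 at 60 kPa, and 69.3 and 64.7 at 25 mM. The 4 libraries at 60 kPa and 25 mM were above the other 6. Its log2 fold change was 0.47 ± 0.06 (limma adjusted p 1.20e-08) and 0.34 ± 0.06 (1.17e-06), and 0.38 and 0.23 after GC correction, both past the test. At 45.3% GC it lay above 95.9% of 965 genes within 1 point of its GC at 60 kPa, and above 91.1% of 976 at 25 mM.

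At the other end of the lid stood PSMD3 and PSMD8, structural subunits at 58.6% and 57.4% GC. PSMD3 had 77.0 and 81.7 FPKM at 400 Pa, 63.6 and 76.5 at 1 kPa, 91.6 and 69.6 at 6 kPa, 71.5 and 60.2 at 60 kPa, and 52.5 and 51.6 at 25 mM. The 25 mM libraries were the lowest of the 10. Its log2 fold change at 25 mM, -0.64 ± 0.06 (limma adjusted p 1.56e-20), was the lowest of the 46 genes, and it was -0.33 ± 0.06 at 60 kPa. After GC correction it was -0.40 at 25 mM, past the test, and -0.12 at 60 kPa, which did not pass. PSMD8 fell in both comparisons, by 0.38 and 0.50, and remained lower in both after the correction, at -0.19 and -0.28.

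The 3 chaperones that help to assemble the 19S base are not part of the finished particle. PSMD5 rose at 60 kPa by 0.16 ± 0.07 with an adjusted p near the threshold (0.0477), and PSMD10 rose by 0.28 ± 0.08, while PSMD9 was at -0.06 ± 0.07 and did not pass. At 25 mM only PSMD10 rose, by 0.23 ± 0.08. After GC correction 0 of the 3 passed at 60 kPa, and at 25 mM PSMD5 was lower at -0.34. The direction of PSMD5 at 60 kPa and of PSMD10 at 25 mM turned with the correction, to -0.08 and -0.02.

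Of the 11S activators, PSME1 and PSME2 form a cap that is induced by interferon and PSME3 forms a nuclear one. PSME1 fell in both comparisons, by 0.33 and 0.28, and was lower in both after GC correction (-0.26 and -0.18). PSME2 passed in neither (-0.06 ± 0.07 and -0.05 ± 0.07). PSME3 had 74.6 and 75.9 FPKM at 400 Pa, 83.9 and 80.2 at 60 kPa and 66.8 and 63.4 at 25 mM. It was at 0.03 ± 0.05 at 60 kPa and fell at 25 mM by 0.30, and the correction left both nearly as they were (0.04 and -0.29).

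The COP9 signalosome held both extremes of GC among the members. Of its 9 genes 2 rose and 3 fell at 60 kPa, and 2 rose and 4 fell at 25 mM, which became 2 and 1, and 1 and 5, after GC correction. The SD of their fold changes was 0.39 and 0.46, the largest of the 8 subcomplexes, and 0.25 and 0.28 after GC correction.

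COPS2 (chr15:49417471-49447854, minus strand), a core subunit of the signalosome that contacts cullins, rose more than any other member. It had 13.1 and 12.9 FPKM at 400 Pa, 17.4 and 17.7 at 1 kPa, 16.3 and 21.7 at 6 kPa, 30.7 and 29.2 at 60 kPa, and 31.2 and 31.4 at 25 mM. Both libraries of every other group were above both 400 Pa libraries, and the 4 libraries at 60 kPa and 25 mM were above the other 6. The log2 fold change was 0.94 ± 0.06 at 60 kPa (limma adjusted p 2.74e-17) and 0.96 ± 0.06 at 25 mM (3.70e-31). After GC correction it was 0.59 (3.10e-08) and 0.62 (2.49e-10), and COPS2 lay above 98.0% of 615 genes at its GC at 60 kPa and above 99.8% of 617 at 25 mM. It was called with each library left out in turn. The GC of COPS2 was read from a transcript of 2036 bases, while the one counted has 4072. Its rank at that GC and its corrected values rest on the shorter transcript. For COPS8 the lengths were 1654 and, in the FPKM values, 2248 bases, also over 20% apart.

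GPS1 (chr17:80009741-80015346, plus strand), another large signalosome subunit, went the other way. It had 43.3 and 46.4 FPKM at 400 Pa, 37.6 and 42.2 at 1 kPa, 44.5 and 38.6 at 6 kPa, 34.4 and 33.6 at 60 kPa, and 29.8 and 27.3 at 25 mM. The libraries at 60 kPa and 25 mM were below the other 6. Its log2 fold change was -0.38 ± 0.06 at 60 kPa (limma adjusted p 2.64e-06) and -0.61 ± 0.07 at 25 mM (2.12e-15). After GC correction it was -0.13 at 60 kPa, which did not pass, and -0.33 at 25 mM, which did.

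COPS5, the catalytic deneddylase, had 27.3 and 24.9 FPKM at 400 Pa, 27.0 and 24.4 at 1 kPa, 24.8 and 33.3 at 6 kPa, 31.4 and 27.5 at 60 kPa, and 34.9 and 33.3 at 25 mM. The libraries at 60 kPa lay just above those at 400 Pa and among those at 6 kPa. Its log2 fold change was 0.06 ± 0.07 at 60 kPa, which did not pass, and 0.20 ± 0.07 at 25 mM (limma adjusted p 0.0153), which was 0.03 after the correction. COPS6 and COPS7A fell in both comparisons, by 0.22 and 0.33 and by 0.20 and 0.47. After GC correction both were lower at 25 mM (-0.20 and -0.31) and did not pass at 60 kPa (-0.11 and -0.07). COPS4, at 41.7% GC, was near 0 as fitted and lower after the correction (-0.25 and -0.17). COPS8 rose at 60 kPa by 0.37 and was at 0.07 ± 0.05 at 25 mM.

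**Figure D3:**
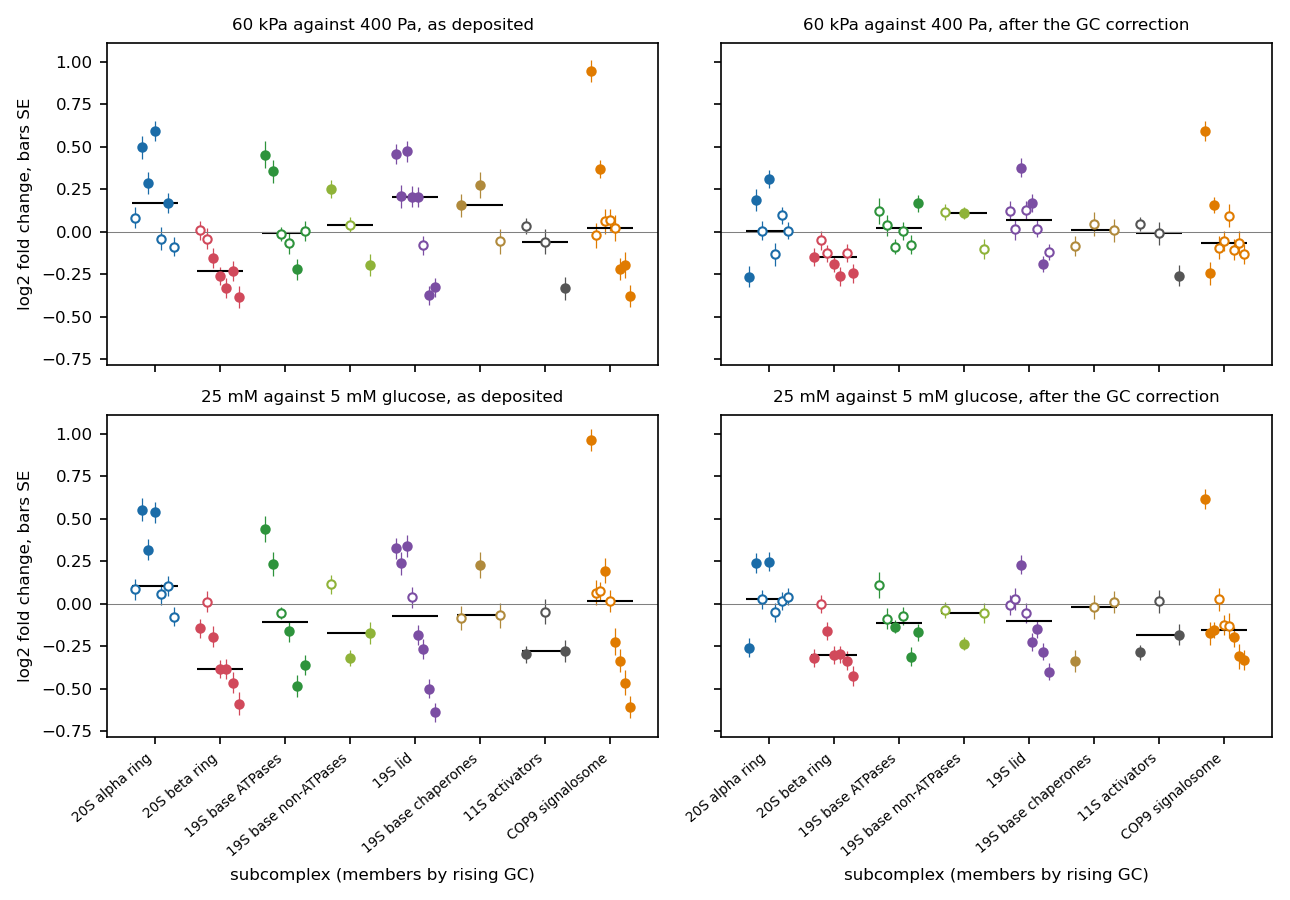
Log2 fold change of each member by subcomplex for 60 kPa against 400 Pa and for 25 mM against 5 mM glucose, as fitted and after GC correction, with filled points for genes past the test. In the beta ring every filled point lies below 0, and the COP9 signalosome spreads the widest, with COPS2 at 0.94 and 0.96 as fitted and 0.59 and 0.62 after the correction.

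Over the subcomplexes, the median SD of fold changes within a subcomplex was 0.242 at 60 kPa and 0.235 at 25 mM, against 0.29 and 0.34 over all 46 genes, and 0.143 and 0.163 after GC correction, against 0.17 and 0.20. Taken gene by gene, 10 members rose in both comparisons, 13 fell in both, 9 passed in neither and 1, PSMD11, rose at 60 kPa and fell at 25 mM. After GC correction 4 were higher in both (COPS2, PSMA4, PSMA3 and PSMD14) and 8 lower in both (PSMA5, PSMB2, PSMB4, PSMB5, PSMB6, PSMD8, PSME1 and COPS4). On log2(FPKM + 1) with GC correction, COPS2 alone among these was called in both comparisons. In that setting PSMA4 and PSMD14 were called at 60 kPa only, and PSMB2, PSMB5 and PSMB6 at 25 mM only. PSMA3, PSMA5, PSMB4, PSMD8, PSME1 and COPS4 were called in neither. What follows is again on the deposited log2 values. With each library left out in turn and the curve fitted again, COPS2 and PSMA4 were higher and PSMA5, PSMB4, PSMB5 and PSMB6 lower in both comparisons in all 4 repeats of each. The others lost a call in at least 1 repeat. PSMA3 and PSMB2 at 60 kPa and COPS4 at 25 mM were called in 1 of 4, and PSME1 at 25 mM and COPS4 at 60 kPa in 2. PSMD14 and PSMA3 at 25 mM and PSMD8 and PSME1 at 60 kPa were called in 3. Another 4 were higher at 60 kPa and lower at 25 mM (COPS8, PSMD11, PSMD2 and PSMC3), and 19 passed in neither. Without either 400 Pa library, COPS8 and PSMC3 lost both calls and PSMD2 the one at 60 kPa, and PSMD11 lost the one at 60 kPa without the deeper. As said, both comparisons use the same 400 Pa libraries. How many of all genes were called in both was not counted, so these overlaps only describe the members.

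**Figure D4:**
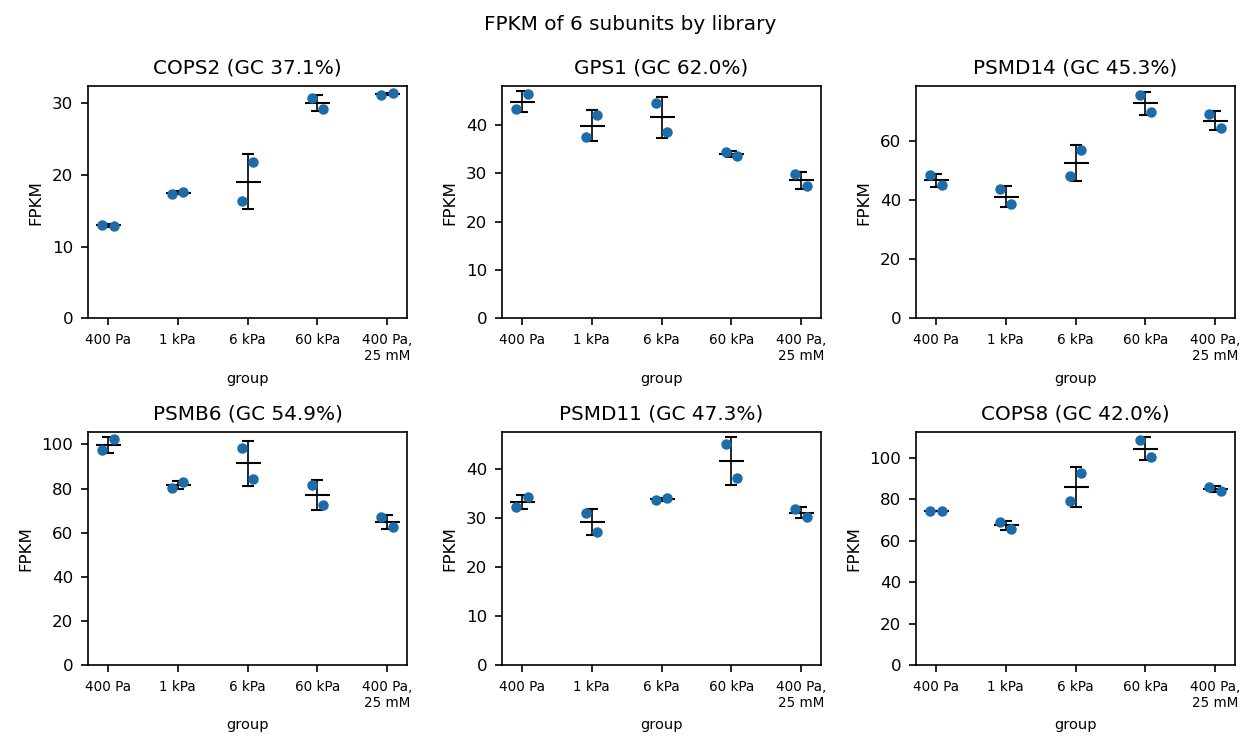
FPKM of COPS2, GPS1, PSMD14, PSMB6, PSMD11 and COPS8 in each of the 10 libraries by group, with the mean and SD of each group (n = 2). COPS2 goes from 13.1 and 12.9 at 400 Pa to 30.7 and 29.2 at 60 kPa, and PSMD11 is higher in both 60 kPa libraries than in all others.

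Stiff gel and glucose were also compared directly, 60 kPa at 5 mM against 400 Pa at 25 mM glucose, on log2(FPKM + 1) of all 10 libraries. As fitted, 0 members passed in either direction by limma, where 0.429% of 12820 genes were higher at 60 kPa and 1.32% lower. At an unadjusted p under 0.05, 10 members were higher and 0 lower, beside 863 and 1008 of the 12820 genes, and the member median was 0.11 against -0.00 over all genes. After GC correction 8 members were higher at 60 kPa and 0 lower, where 3.82% of 12650 genes were higher and 3.26% lower, and the median was 0.12 against 0.02. The 8 were the ATPase PSMC3, the base scaffold PSMD2, the lid subunit PSMD11, the assembly chaperone PSMD5, the activator PSME3, COPS8, and the beta ring genes PSMB3 and PSMB6. The test therefore depends on the correction. With single libraries left out, PSMD2 and COPS8 were called in all 10 repeats, PSME3 in 9, PSMD11 and PSMC3 in 8, and PSMB6, PSMB3 and PSMD5 in 2.

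PSMD11 (chr17:30771481-30810337, plus strand), a lid subunit, had 32.1 and 34.2 FPKM at 400 Pa, 31.1 and 27.2 at 1 kPa, 33.6 and 34 at 6 kPa, 45 and 38.1 at 60 kPa, and 31.8 and 30.3 at 25 mM. Both 60 kPa libraries were above all 8 others. The direct difference after GC correction was 0.46 ± 0.08 with a limma adjusted p of 0.0119, and 0.40 ± 0.11 with 0.137 as fitted. Against 400 Pa at 5 mM it was 0.20 ± 0.06 higher at 60 kPa and -0.19 ± 0.06 at 25 mM on the deposited scale.

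PSMD2 had 124 and 128 FPKM at 400 Pa, 113 and 109 at 1 kPa, 127 and 123 at 6 kPa, 141 and 130 at 60 kPa, and 106 and 105 at 25 mM. The 60 kPa libraries were the highest and the 25 mM libraries the lowest of the 10. The direct difference after GC correction was 0.37 ± 0.04 (limma adjusted p 0.00217), and as fitted 0.35 ± 0.08 (0.0712). PSMC3 had 88.4 and 91.8 FPKM at 400 Pa, 104 and 88.4 at 60 kPa and 71.4 and 75.2 at 25 mM, with 0.37 ± 0.06 (0.0122) after the correction.

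COPS8 (chr2:237994084-238007489, plus strand), the smallest of the classical signalosome subunits, had 74.2 and 74.3 FPKM at 400 Pa, 69.1 and 65.9 at 1 kPa, 79.1 and 92.8 at 6 kPa, 108 and 100.7 at 60 kPa, and 86.1 and 83.9 at 25 mM. Both 60 kPa libraries were above all 8 others. The direct difference was 0.36 ± 0.05 after GC correction (limma adjusted p 0.00461) and 0.29 ± 0.10 as fitted (0.204).

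**Figure D5:**
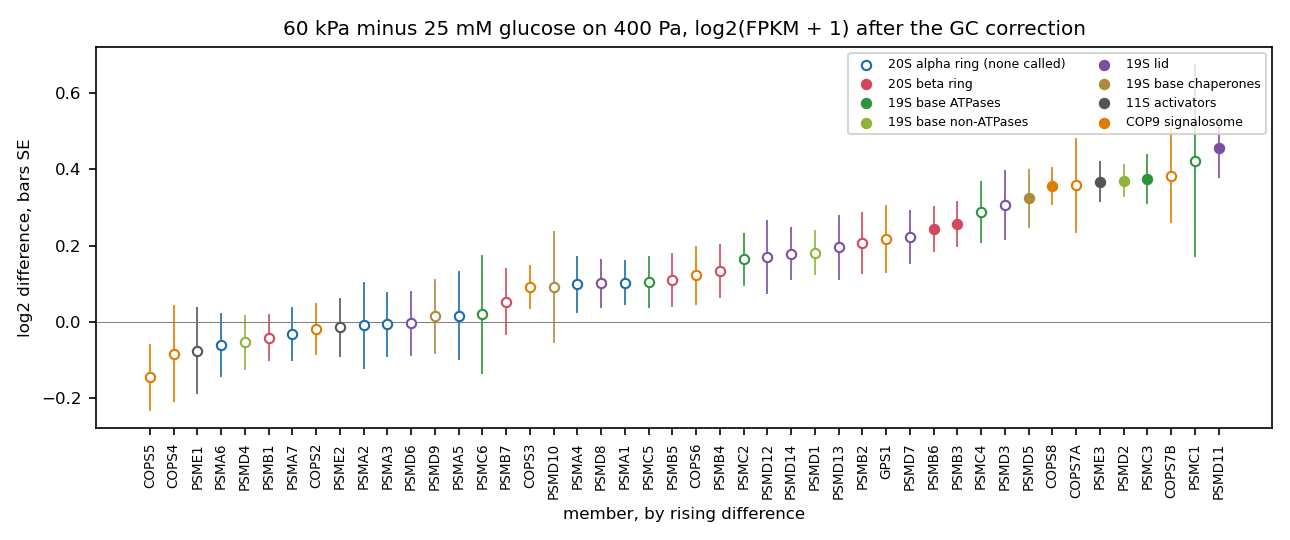
Log2 difference of each member between 60 kPa and 25 mM glucose on 400 Pa, on log2(FPKM + 1) after GC correction, with standard errors. After the correction 8 members pass the test, all higher at 60 kPa, with PSMD11 at 0.46 and PSMD2 at 0.37.

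The intermediate gels gave no member past the test. At 1 kPa against 400 Pa 0 members were higher or lower by limma, as were 0% of all 12820 genes in each direction. At an unadjusted p under 0.05, 1 member was higher (COPS2, 0.41 ± 0.13) and 12 were lower, beside 285 and 491 of all genes. The fold change was below 0 for 42 of the 46 genes, with a median of -0.18 against -0.01 over all genes, and all 7 beta ring genes lay between -0.29 and -0.19. At 6 kPa 0 members passed, where 0.0546% of genes were higher and 0.296% lower, and 1 was higher and 1 lower at an unadjusted p under 0.05, beside 994 and 712 of all genes. The median there was 0.00, and COPS2 had the largest value at 0.51 ± 0.13. The 6 kPa libraries are the shallowest and differ from each other in GC, and without the deeper one 4 members were higher and 1 lower, beside 1119 and 658 of the 12820 genes.

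Promoter sequence was read from RefSeq (GRCh38.p14) for 40 of the 46 genes, with 51 promoters, over the 250 bases before each start and on both strands. The motif TGACNNNGC, the core shared by sites of NFE2L1 and NFE2L2, was present in 14 of 51 member promoters (27.5%) and in 10.9% of 35116 promoters of all genes. Its stricter form TGACTNNGC, which lies within it, was present in 4 of 51 (7.8%) against 3.0%. The motif CCAAT was present in 21 of 51 (41.2%) against 32.0%. A match is a run of letters and not a bound site. The 4 stricter matches are shown with the motif in capitals and 10 bases on each side, on the strand that reads the motif.
PSMA4: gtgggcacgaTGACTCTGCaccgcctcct
PSMB3: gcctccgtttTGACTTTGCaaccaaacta
PSMD3: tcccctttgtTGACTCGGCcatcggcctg
COPS3: cgcagcttgcTGACTAGGCcgccgggagc
The windows are at chr15:78540650-78540678 for PSMA4, chr17:38752627-38752655 for PSMB3 and chr17:39980760-39980788 for PSMD3, genes of the plus strand, and at chr17:17280710-17280738 for COPS3, a gene of the minus strand. These 4 genes did not move alike. At 60 kPa PSMA4 rose by 0.59, PSMB3 and PSMD3 fell by 0.23 and 0.33, and COPS3 was at 0.07 ± 0.06 and did not pass.

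NFE2L1, the factor that raises proteasome genes when proteolysis is short, was itself lower on the stiffer gels. It had 50.8 and 53.2 FPKM at 400 Pa, 52.2 and 53.6 at 1 kPa, 36.4 and 31.5 at 6 kPa, 36.6 and 34.3 at 60 kPa, and 56.1 and 54.8 at 25 mM. The 4 libraries of 6 and 60 kPa were below the other 6. Its log2 fold change was -0.60 ± 0.05 at 60 kPa (limma adjusted p 1.28e-13), -0.46 after GC correction, and -0.60 at 6 kPa on log2(FPKM + 1) (0.0493). At 25 mM it was -0.02 (0.696), which turned to 0.14 and passed after GC correction (0.00524), and the direct difference of 60 kPa from 25 mM was -0.63 ± 0.10 (0.0171). NFE2L2, the related factor of the oxidative stress response, rose in both, by 0.20 at 60 kPa and 0.55 at 25 mM, and after GC correction it passed only at 25 mM, at 0.45. Of all 7 genes of the NFE2L1 pathway tested, 2 rose and 3 fell at 60 kPa and 3 rose and 1 fell at 25 mM, and after GC correction 0 were higher and 2 lower, and 3 higher and 0 lower. Protein and processing of these factors were not measured.

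Other genes of the pathway were taken from lists of proteasome assembly factors, immunoproteasome subunits, ubiquitin genes, the NEDD8 and cullin system and eIF3. Their counts stand beside 26.6% of all genes higher and 25.2% lower at 60 kPa and 27.9% and 27.5% at 25 mM, and after GC correction beside 20.0% and 19.3%, and 20.5% and 20.6%. Of 16 assembly factors and further proteasome proteins tested, 6 rose and 3 fell at 60 kPa and 7 rose and 4 fell at 25 mM, which became 5 and 2, and 4 and 2, after GC correction. SEM1, a small lid subunit, rose by 0.26 and 0.36, and by 0.22 and 0.31 after GC correction. ADRM1, a ubiquitin receptor of the 19S base, had 73.4 and 77.7 FPKM at 400 Pa, 73.9 and 61.5 at 60 kPa and 50.5 and 42.9 at 25 mM. It fell by 0.22 at 60 kPa, which was 0.05 and not past the test after GC correction, and by 0.67 at 25 mM, which was -0.39 and passed. Its direct difference after GC correction was 0.50 higher at 60 kPa (limma adjusted p 0.00656). Of the 5 immunoproteasome and tissue-specific core genes 3 could be tested and PSMB11 and PSMA8 were at 0. Of those tested, 1 fell at 60 kPa (PSMB10, -0.46) and 2 fell at 25 mM (PSMB8, -0.24, and PSMB10, -0.38). After GC correction 1 was lower at 60 kPa (PSMB10, -0.23), and 1 was higher and 0 lower at 25 mM.

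Of 17 genes of the NEDD8 and cullin system, the substrates and partners of the COP9 signalosome, 10 rose and 2 fell at 60 kPa and 8 rose and 1 fell at 25 mM. After GC correction the counts were 5 and 2, and 6 and 5. COPS9, a small further signalosome subunit, fell at 60 kPa by 0.26, and UBE2M, which charges cullins with NEDD8, fell by 0.34 at 60 kPa and by 0.48 at 25 mM. After GC correction COPS9 did not pass at 60 kPa (-0.17) and UBE2M passed at 25 mM only (-0.19). Of 15 ubiquitin genes and processing factors 4 rose and 6 fell at 60 kPa and 4 rose and 8 fell at 25 mM, and after GC correction 2 were higher and 4 lower, and 3 higher and 8 lower. The polyubiquitin gene UBB fell in both, by 0.29 and 0.51, and was lower in both after GC correction, at -0.14 and -0.34. The translation initiation factor eIF3 is built on the same scaffold as the lid and the signalosome. Of its 13 genes 3 rose and 7 fell at 60 kPa, and 5 rose and 6 fell at 25 mM, which became 2 and 8, and 3 and 8, after GC correction. EIF3E was at 0.32 and 0.65 as fitted, both past the test, which were -0.00 and 0.32 after GC correction, the second past the test.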

How the data were processed

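Messenger RNA libraries were made from TRIzol extracts with a KAPA mRNA HyperPrep kit, per the labels. Per the submitters' processing notes, STAR was the aligner, HOMER the counter and hg19 the build, and DESeq2 is also named, all without versions. Tags in exons of 1 transcript per gene were counted with no strand option, per the file headers. The deposited log2 values of the stiffness and the glucose table come from the authors, who made them out of those tags and normalised them within 4 libraries each, and the authors' p-value columns in those tables were not used here. The deposited FPKM values of all 10 libraries come from HOMER's own option, per the file headers. Table columns name the group and not the replicate, and so a library is identified by its group and its depth. For the deeper 1 kPa library the input directory in the header names no gel, and the column heading gave the group. The sources used here give no recipe for the 1 kPa gel.

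Read counts could be recovered from the deposited FPKM values: 100% of the values checked lay within 0.12 reads of a whole number. File headers gave the mapped reads of the other groups, while those at 1 kPa and 6 kPa were estimated from the same FPKM values. For these libraries the check is not independent. Exon reads ran from 1.97 M at 6 kPa to 18.4 M at 400 Pa, so the shallow libraries measure low genes less precisely. The labels do not say whether replicates came from separate passages, so p-values describe these libraries only. On the deposited log2 values, with 2 residual degrees of freedom per fit, p-values rest largely on the trend across genes. A small p-value there is no measure of how close the 2 libraries of a group were.

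The test was limma (version 3.58.1, R 4.3.3; eBayes with trend). For stiffness (60 kPa) and glucose it used the deposited log2 values of 4 libraries, for genes not written as 0 whose mean reached the log2 of 10. Prior degrees of freedom were 46.1 and 182.6. The 1 kPa, 6 kPa and direct comparisons were fitted on log2(FPKM + 1) of 10 libraries in 5 groups, for genes whose mean reached 0.5 FPKM. Benjamini-Hochberg adjustment ran over all genes, with calls under 0.05. Transcript GC was matched for 26852 of 27942 genes from GENCODE transcripts, by RefSeq accession or symbol and nearest length. The GC correction subtracts, per library, a natural spline of 5 degrees of freedom. The counted transcript of 21 members differed between the FPKM and the log2 tables. Scripts were tested on simulated data. The members and gene lists were chosen with earlier results of these data known, and 101 of 105 other listed symbols were found. In each subcomplex the members with the largest and smallest fold change and 5 catalytic subunits get full values, as do members called in the direct comparison, and each other list up to 2 called genes with the highest mean FPKM. Alternatives were median centring, GC correction, no filter on low values, another pseudocount, log2(FPKM + 1) and leaving out libraries.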

Additional observations from a re-analysis of the deposited data

How the results depend on the processing

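The member counts moved with the scale and with GC. At 60 kPa, 16 higher members became 8 with GC correction, 4 on log2(FPKM + 1) with it and 7 on that scale with median centring, and 13 lower became 8, 0 with both steps and 2 on log2(FPKM + 1) alone. At 25 mM, 11 higher became 4, 1 and 5 under the same first 3 settings, and 21 lower became 9 on log2(FPKM + 1) and 8 with GC correction on it. The GC-corrected counts of 8 and 8 at 60 kPa became 4 and 0 on log2(FPKM + 1), and 4 and 23 at 25 mM became 1 and 8. In the direct comparison 0 higher became 8 with GC correction and 3 with median centring. With median centring there, 125 of all 12820 genes were higher and 203 lower. On log2(FPKM + 1) with median centring 1260 of 12820 genes were higher and 1614 lower at 60 kPa. At 25 mM 1421 were higher and 2133 lower. The spread within a subcomplex was 0.143 and 0.163 with GC correction and 0.277 and 0.274 on log2(FPKM + 1), where the correlation with GC at 25 mM was -0.883.

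With single libraries left out, counts at 60 kPa were 12 to 16 higher and 7 to 13 lower (7 without the shallower 400 Pa library), and with GC correction 3 to 11 and 4 to 12 (3 without the deeper 400 Pa library, 4 and 4 without the shallower). At 25 mM they were 7 to 12 and 16 to 21 (7 without the shallower 400 Pa library), and with GC correction 3 to 5 and 15 to 24 (15 without the same library). Spearman's correlation with GC ran from -0.864 to -0.831 and from -0.907 to -0.879, and the spread from 0.205 to 0.256 and from 0.226 to 0.252. At 1 kPa 0 were called in all repeats. At 6 kPa 0 to 4 were higher and 0 to 1 lower, with 4 and 1 without the deeper 6 kPa library. The direct comparison gave 0 to 4 higher (4 without either 6 kPa library) and 0 lower, and with GC correction 3 to 8 higher (3 without the deeper 60 kPa or the shallower 25 mM library, 4 without the deeper 25 mM, 5 without either 400 Pa or the shallower 60 kPa library) and 0 lower. The cause of these changes was not tested.

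Of 400 alternative values of 25 members, 324 kept direction and call, 46 lost the call, 4 gained it and 26 changed sign, 2 of them for called values. With GC correction at 60 kPa the changed values were PSMA7 0.007, PSMB2 -0.148, PSMD5 -0.084 (called as fitted), PSMD9 0.009 and COPS5 -0.094. At 25 mM they were PSMA7 0.042, PSMB1 -0.001, PSMD1 -0.035, PSMD9 0.011, PSMD10 -0.018 (called as fitted) and PSME2 0.014. On log2(FPKM + 1) they were PSMB1 0.040, PSMD9 0.010 and PSME2 0.004 at 60 kPa, and PSMA7 0.030, PSMD5 0.005, PSMD9 0.015 and PSME2 0.043 at 25 mM. Median centring turned PSMB2 to -0.031 and PSME3 to -0.005 at 60 kPa, and PSMB1 to -0.017 at 25 mM. Without the shallower 60 kPa library PSMB2 was -0.055 and PSMD9 0.006, at the end of ranges up to 0.071 and down to -0.118 over the libraries left out. At 25 mM PSMA7 was 0.005 (as low as -0.156 without another library) and PSMB1 -0.018 (up to 0.040) without the shallower 25 mM library, and PSMB1 was -0.011 without the deeper 400 Pa library.

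No paired analysis was possible because the columns carry no replicate number. Normalisation by TMM was not run, since it needs counts. The GC correction among genes of at least 8 FPKM, GC correction and median centring on log2(FPKM + 1), and the repeats without a library for the GC-corrected counts and the spread within a subcomplex were chosen after seeing the data. Depth limits PSMC1 most, and in the shallower 6 kPa library also COPS7B (65 reads) and PSMD10 (61 reads). Median centring on log2(FPKM + 1) moved the median of all genes by over 0.1, from 0.06 to -0.08 at 60 kPa and from 0.08 to -0.08 at 25 mM.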

Other observations

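A few genes of the wider pathway also rose in both comparisons and were still higher after GC correction. CUL4B, a cullin that the COP9 signalosome acts on, had 17.7 and 17.4 FPKM at 400 Pa, 39.9 and 36.5 at 60 kPa and 33.4 and 37.7 at 25 mM glucose. Its log2 fold changes were 0.91 and 0.79, and 0.57 and 0.45 after the correction, all past the limma test. NAE1, a subunit of the enzyme that activates NEDD8, had 23.5 and 22.4 FPKM at 400 Pa, 44.2 and 38.2 at 60 kPa and 42.6 and 42.7 at 25 mM, with 0.59 and 0.61, and 0.31 and 0.32 after the correction. Both were chosen after their values were seen.

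POMP, which chaperones the assembly of the 20S core, behaved otherwise. Its level was 54.9 and 52.3 FPKM at 400 Pa, 89.8 and 79.4 at 60 kPa and 77.2 and 80.0 at 25 mM, and the fold changes of 0.49 and 0.37 became 0.08 and -0.01 after the correction and no longer passed. VCP, the ATPase that extracts ubiquitinated proteins, had 127 and 134 FPKM at 400 Pa, 140 and 130 at 60 kPa and 105 and 104 at 25 mM. Its fold change was -0.03 at 60 kPa and -0.42 at 25 mM, and the direct difference after GC correction was 0.39 higher at 60 kPa (limma adjusted p 0.00654). POMP and VCP were also chosen after their values were seen.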
